A study of Mus musculus with 6 samples.

Results

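The genes described here are 10 members of the BCL2 family that do not belong to its direct p53 targets, namely Bcl2, Bcl2l1, Mcl1, Bcl2l11, Bak1, Bid, Bad, Bik, Bmf and Bok. They were chosen by gene symbol, as the pro-survival and pro-death family genes other than Bax, Bbc3 and Pmaip1, and each symbol matched 1 of the 47719 gene identifiers measured. RNA was taken from the prostate glands of 6 mice of the strain B6.129S4-Trp53tm3.1Tyj/J, which differ in their number of Trp53 R270H alleles. Wildtype mice 39 and 41 (Trp53+/+) carried 0 mutant alleles, heterozygous mice 37 and 40 (Trp53R270H/+) carried 1, and homozygous mice 47 and 49 (Trp53R270H/R270H) carried 2. All 6 mice were irradiated over the whole body with 5 Gy at about 3 months of age and their glands were taken 6 h later, so the comparison holds no unirradiated mouse. R270H lies in the DNA-binding domain of p53 and is the mouse counterpart of a hotspot mutation of human tumours.

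Proteins of the BCL2 family decide whether the outer membrane of the mitochondrion stays closed. BCL2, BCL-XL (from Bcl2l1) and MCL1 keep it closed by holding the death-promoting members in a surface groove. BAX, BAK (from Bak1) and BOK are the members that can open it, which releases cytochrome c and starts the caspase cascade. The BH3-only proteins, among them BIM (from Bcl2l11), BID, BAD, BIK and BMF, carry stress signals by inserting a short helix, the BH3 segment, into that groove. After irradiation, p53 switches on Bax, Bbc3 (PUMA) and Pmaip1 (NOXA). The genes described here are known to respond mainly to growth factors, kinases, transcription factors of the FOXO group and protein turnover. The study's authors cite BCL-XL as an example of genes that certain p53 mutants can regulate although wildtype p53 usually does not.

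The BH3 segment is what these proteins share, and its coding sequence is shown for 7 genes that the comparisons turn on. The search took a leucine codon, 3 codons of any kind, a codon for glycine, alanine or serine, and an aspartate codon (GAC or GAT), in frame in the principal GENCODE M21 coding sequence of each gene. Each of the 10 members held exactly 1 match, as did Bax and Bbc3, against 34.3% of 20307 mouse coding sequences with at least 1 match. The pattern describes the segment that these proteins share, so the matches locate it and are not a test. Each line gives 27 bases from 5′ to 3′ on the coding strand, with the leucine codon and the last 2 codons of the match in capitals.
Bcl2: accCTCcgccgggctGGGGATgacttc
Bcl2l1: gcgCTGagagaggcaGGCGATgagttt
Bcl2l11: gagCTGcggcggatcGGAGACgagttc
Bik: aggCTGgcctgcatcGGCGATgagatg
Bak1: cagCTTgctctcatcGGAGATgatatt
Bax: tgtCTCcggcgaattGGAGATgaactg
Bbc3: cagCTGcggcggatgGCGGACgacctc

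In GRCm38 these stretches lie within single coding exons. That of Bcl2 is at chr1:106712578-106712604 on the minus strand, that of Bcl2l1 at chr2:152829700-152829726 on the minus strand and that of Bcl2l11 at chr2:128147147-128147173 on the plus strand. That of Bik is at chr15:83543081-83543107 on the plus strand and that of Bak1 at chr17:27022534-27022560 on the minus strand. That of Bax is at chr7:45466000-45466026 on the minus strand and that of Bbc3 at chr7:16313770-16313796 on the plus strand.

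Expression was measured as FPKM, the number of sequenced fragments scaled to gene length and library size, which allows levels to be compared between genes because gene length is already divided out. The sum of FPKM over all genes lay between 518671 and 636407 per mouse, and no counts of fragments were given. The spacing of the lowest values put the divisor for library size between 0.79 and 1.07 times that of wildtype mouse 39. Whether that divisor was the number of fragments or a factor scaled between libraries is not known. A pair of mice stood apart in tissue markers. Homozygous mouse 47 had an FPKM of 257 for Pbsn, a secretory protein of the prostate epithelium, against 7329 to 11512 in the other 5 mice. Its summed FPKM over 6 luminal epithelial markers was 1300 against 8518 to 13485. Pbsn is 1 of these 6 markers and made up most of their sum in the other 5 mice, so this sum largely repeats the Pbsn values. Wildtype mouse 39 had a summed FPKM of 3479 over 6 seminal vesicle markers against 35131 to 56512 in the others, although Svs2 is listed at 0 in both homozygous mice and 2 more of these genes are listed at 0 in mouse 47. Among the lists, the summed FPKM of 8 skeletal muscle markers was 1323 and 1992 in wildtype mice, 3779 and 3991 in heterozygotes and 4574 and 4060 in homozygotes. The defining luminal markers Krt8 and Krt18 were present in every mouse at an FPKM of 134 to 189 and 351 to 462. For the other 6 lists (lymphocyte, macrophage, smooth muscle, basal epithelial, endothelial and adipocyte), the homozygous mean sum was between 0.421 and 1.37 times the wildtype mean, the lowest being that of lymphocyte markers, where mouse 47 had 15.7 and the other 5 mice 97.3 to 163. That low sum came from the immunoglobulin gene Ighm alone, since without it mouse 47 had 6.84 and the other 5 mice 5.17 to 8.62.

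**Figure D1:**
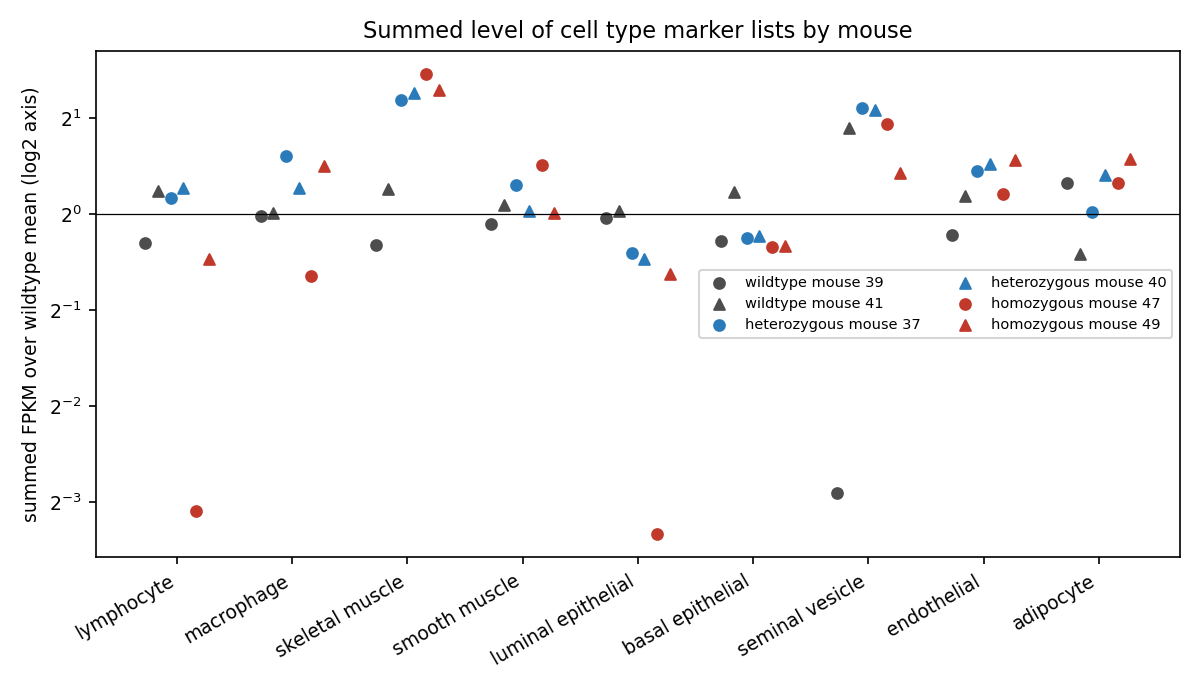
Summed FPKM of each marker list (x axis) in each of the 6 mice, divided by the mean of the 2 wildtype mice (y axis, log2 scale), with genotype by colour and the mice of a genotype by symbol. Skeletal muscle markers lie above the wildtype mean in all 4 mice with a mutant allele. Mouse 47 is far below the others in luminal markers, mostly through Pbsn, and in lymphocyte markers, through Ighm alone. Mouse 39 is far below the others in seminal vesicle markers.

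Among the 10 members, the pro-survival genes Mcl1 and Bcl2l1 were the most abundant and Bcl2 was among the least. The mean FPKM over the 6 mice was 60.7 for Mcl1 and 40.9 for Bcl2l1, followed by Bad with 26.5 and Bmf with 14.0. Bok had 11.6, Bik 11.5, Bak1 10.2 and Bcl2l11 6.995, and the list ended with Bcl2 at 4.22 and Bid at 3.40. Mcl1 exceeded Bcl2l1, and Bcl2l1 exceeded Bad, in 6 of 6 mice, although the ranges of each pair over all mice overlapped. The order of Bmf, Bok, Bik and Bak1 was not stable from mouse to mouse, since each exceeded the next in only 3 or 4 mice. Bad was separated from Bmf, and Bak1 from Bcl2l11, with no overlap of their ranges. All 10 members passed the filter of a mean FPKM of at least 1, and the ratio of the highest to the lowest mouse ran from 1.21 for Bak1 to 2.09 for Bok.

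The first question was whether expression of these genes differed between the 3 genotypes after irradiation. Tests used limma on log2(FPKM + 0.1) over 13818 genes, with Benjamini-Hochberg adjustment over all of them, and fold changes are on that scale, which understates changes at low FPKM. In the comparison of the 3 genotypes, 0 of the 10 members had an adjusted p-value under 0.05, where 0.101% of all tested genes did. At an unadjusted p-value under 0.05 the number was 4, namely Bcl2, Bcl2l1, Bcl2l11 and Bik, against 11.5% of all genes. A linear model on each gene alone gave 0 and 3 in the same order, against 0 and 1303 of 13649 genes. With the criterion of an unadjusted p-value under 0.05 and a difference of at least 1.5-fold between some pair of groups, the number was 2, Bcl2 and Bcl2l1, against 8.31% of all genes. With any single mouse left out fewer members had an unadjusted p-value under 0.05, the fewest without mouse 37, 40 or 47. Such a fit leaves 1 genotype with a single mouse and has less precision, so these counts do not show the weight of that mouse.

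In homozygous against wildtype mice, no member passed the adjusted threshold (0 of 10, against 0.384% of all genes), while 4 had an unadjusted p-value under 0.05 (18.0% of all genes), 1 of them higher and 3 lower, where 8.65% of all genes were higher and 9.32% lower. The higher gene was Bcl2, and the lower genes were Bcl2l1, Bcl2l11 and Bik. The linear model on each gene alone also gave 0 and 4, against 0 and 1940 of 13649 genes. With single mice left out, the homozygous log2 fold change ran from 0.52 to 0.79 for Bcl2 and from -0.82 to -0.48 for Bcl2l1. It ran from -0.68 to -0.43 for Bcl2l11 and from -0.60 to -0.37 for Bik. In heterozygous against wildtype mice, Bcl2 was the single member at an unadjusted p-value under 0.05 and was higher, where 6.87% of all genes passed and 4.66% were higher (2.21% were lower), and none passed the adjusted threshold in limma or in the linear model, and 0.00% of the 13818 genes did. That count fell to 0 with quantile normalization. The heterozygous log2 fold change of Bcl2 was 0.50 without mouse 37 and 0.43 without mouse 40, beside 0.47 with all mice. The median log2 fold change of the 10 members was -0.13 in homozygous and -0.03 in heterozygous mice, beside -0.04 and -0.01 over all tested genes. Both comparisons share the wildtype mice. Values of homozygous and wildtype mice did not overlap in 5 members, with 1 above and 4 below, where 21.3% and 28.7% of all genes lay above and below (50.0% in all). For heterozygous and wildtype mice the number was 3, with 1 above and 2 below (19.2% and 19.9%, 39.0% in all). For homozygous and heterozygous mice it was 5, with 1 above and 4 below (18.0% and 24.1%, 42.1% in all). The members did not stand out from all genes in any of these 3 totals.

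**Figure D2:**
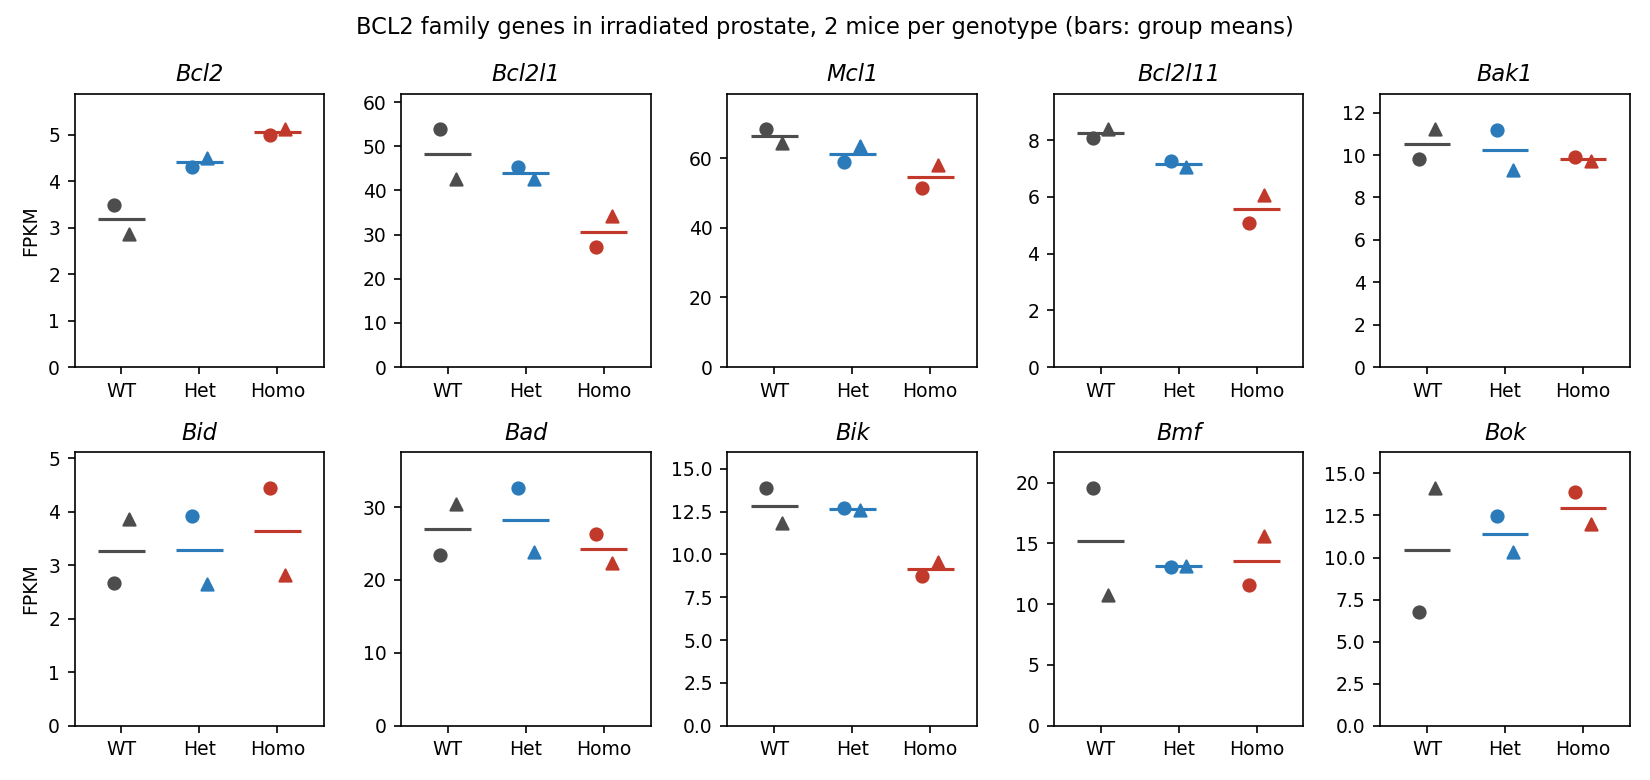
FPKM (y axis, linear from 0) of the 10 members in wildtype (WT), heterozygous (Het) and homozygous (Homo) mice, with 1 point per mouse and bars at the mean of the 2 mice. Circles are mice 39, 37 and 47 and triangles mice 41, 40 and 49; Bcl2 steps up with the number of mutant alleles, Bcl2l11 and Mcl1 step down, and Bcl2l1 and Bik are lower in the homozygous mice alone.

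Bcl2, the founding pro-survival member (ENSMUSG00000057329, chromosome 1 from 106538178 to 106714274, minus strand), was the one member whose values were ordered upwards by the number of mutant alleles. Its FPKM was 3.49 and 2.87 in wildtype mice, 4.32 and 4.51 in heterozygotes and 4.99 and 5.12 in homozygotes. The values of the 3 genotypes did not overlap. The mean was 3.18 ± 0.437 (SD, n = 2) with 0 mutant alleles, 4.41 ± 0.138 (SD, n = 2) with 1 and 5.06 ± 0.0905 (SD, n = 2) with 2. Against wildtype, the log2 fold change was 0.47 with 1 mutant allele (standard error, SE, 0.16, limma adjusted p = 0.642) and 0.66 with 2 (SE 0.16, limma adjusted p = 0.164), the first being 70.7% of the second. Leaving out single mice moved the homozygous value between 0.52 and 0.79, and it was 0.68 without mouse 47. Skeletal muscle markers were also higher in all 4 mutant mice (median log2 fold change 1.25 in heterozygous and 1.40 in homozygous mice over 8 genes). The summed FPKM of 5 endothelial markers was 25.2 and 33.4 in wildtype mice, 40.2 and 42.1 in heterozygotes and 33.96 and 43.5 in homozygotes, above both wildtype mice in each mutant mouse but not ordered by allele number. Lymphocytes also express Bcl2, and the lymphocyte list without the immunoglobulin gene Ighm summed to 5.17 and 6.16 FPKM in wildtype mice, 6.51 and 6.39 in heterozygotes and 6.84 and 8.62 in homozygotes. These sums were ordered upwards by allele number without overlap, as the Bcl2 values were. The full list was not, with 109 and 159 in wildtype mice, 151 and 163 in heterozygotes and 15.7 and 97.3 in homozygotes. Ighm was set aside after its values were seen. Of the 12 listed genes only Ighm and Ptprc passed the filter, so all but Ptprc in the sum without Ighm were below a mean FPKM of 1. The part of these cell types in the Bcl2 values was not tested, and in whole glands more cells of a type and more RNA per cell cannot be told apart.

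Bcl2l1, which encodes BCL-XL (ENSMUSG00000007659, chromosome 2 from 152780668 to 152831728, minus strand), went the other way. Its FPKM was 53.9 and 42.5 in wildtype mice, 45.4 and 42.6 in heterozygotes and 27.1 and 34.2 in homozygotes. Both homozygous mice lay below the other 4, while heterozygous and wildtype values overlapped. The mean was 48.2 ± 8.02 (SD, n = 2) in wildtype mice, 44.0 ± 1.99 (SD, n = 2) in heterozygotes and 30.7 ± 5.01 (SD, n = 2) in homozygotes. The log2 fold change was -0.65 in homozygous mice (SE 0.18, limma adjusted p = 0.182) and -0.12 in heterozygous mice (SE 0.18, limma adjusted p = 0.951). It was -0.48 in homozygous mice both without mouse 39, the highest, and without mouse 47, the lowest. The median log2 fold change over 6 luminal markers was -0.94 in homozygous mice, but the list was not uniform. Only 3 of the 6 were lower at an unadjusted p-value under 0.05 in limma, where 9.32% of all genes were. The luminal keratins Krt8 and Krt18 stayed within the narrow ranges given above in all 6 mice. The part of luminal cells in the Bcl2l1 values was not tested.

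Mcl1, which encodes a short-lived pro-survival protein (ENSMUSG00000038612, chromosome 3 from 95658788 to 95663176, plus strand), had an FPKM of 68.3 and 64.4 in wildtype mice, 58.9 and 63.4 in heterozygotes and 51.5 and 57.9 in homozygotes. The values were ordered by allele number without overlap, but the steps were small. Its log2 fold change was -0.28 in homozygous mice (SE 0.12, limma adjusted p = 0.304), and quantile normalization lowered the size of this change to -0.15. The sum over the 3 pro-survival members was 118 ± 11.2 (SD, n = 2) FPKM in wildtype mice, 110 ± 1.36 (SD, n = 2) in heterozygotes and 90.4 ± 9.62 (SD, n = 2) in homozygotes. Within that sum the share of Bcl2 was 2.78% and 2.62% in wildtype mice, 3.98% and 4.08% in heterozygotes and 5.97% and 5.27% in homozygotes. Bcl2 thus made up a small part of the summed FPKM of these 3 genes in every mouse. The sum leaves out the pro-survival gene Bcl2l2, described below. Bcl2l1 exceeded Bcl2 15.4- and 14.8-fold in wildtype but 5.43- and 6.68-fold in homozygous mice.

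Among the 5 BH3-only genes, Bcl2l11 and Bik had homozygous values below both wildtype values. Bcl2l11, the gene of the broad activator BIM (ENSMUSG00000027381, chromosome 2 from 128126038 to 128162547, plus strand), had an FPKM of 8.09 and 8.39 in wildtype mice, 7.26 and 7.04 in heterozygotes and 5.10 and 6.08 in homozygotes. These values were ordered by allele number without overlap, and the heterozygous log2 difference was 36.2% of the homozygous one. The log2 fold change was -0.56 in homozygous mice (SE 0.14, limma adjusted p = 0.168) and -0.20 in heterozygous mice (SE 0.14, limma adjusted p = 0.871), and the first was -0.43 without mouse 47. Bik, which encodes a BH3-only protein found mainly at the endoplasmic reticulum (ENSMUSG00000016758, chromosome 15 from 83526862 to 83544634, plus strand), had an FPKM of 13.9 and 11.8 in wildtype mice, 12.7 and 12.6 in heterozygotes and 8.73 and 9.57 in homozygotes. It differed from Bcl2l11 in that both heterozygous values lay between those of the wildtype mice. The log2 fold change of Bik was -0.48 in homozygous mice (SE 0.13, limma adjusted p = 0.184) and -0.02 in heterozygous mice (SE 0.13, limma adjusted p = 0.992), with -0.42 in homozygous mice without mouse 47.

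Bid, Bad and Bmf varied as much within genotypes as between them. Bid, whose protein is cut by caspase 8 to link death receptors to mitochondria, had an FPKM of 2.68 and 3.86 in wildtype mice, 3.93 and 2.65 in heterozygotes and 4.45 and 2.82 in homozygotes. Bad, whose protein is silenced by phosphorylation when growth factors are present, had 23.4 and 30.4, 32.6 and 23.8, and 26.3 and 22.3 in the same order. Bmf, whose protein is tethered to the cytoskeleton until stress releases it, had 19.6 and 10.8, 13.1 and 13.2, and 11.6 and 15.6. All 3 genes had overlapping values in every pair of genotypes. Their log2 fold changes in homozygous mice were 0.14 for Bid, -0.14 for Bad and -0.11 for Bmf, with 95% intervals from -0.67 to 0.95, from -0.67 to 0.38 and from -0.85 to 0.63. These intervals leave room for differences as large as those seen in Bcl2l11 and Bik.

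The pore-forming members outside the p53 targets, Bak1 and Bok, had overlapping values in every pair of genotypes. Bak1 (ENSMUSG00000057789, chromosome 17 from 27019810 to 27029009, minus strand) had an FPKM of 9.80 and 11.2 in wildtype mice, 11.2 and 9.28 in heterozygotes and 9.89 and 9.72 in homozygotes. It had the narrowest range of the 10 members, and its log2 fold change was -0.10 in homozygous mice, with a 95% interval from -0.46 to 0.26 (adjusted p = 0.750 from limma). Bok had 6.76 and 14.2 in wildtype mice, 12.5 and 10.3 in heterozygotes and 13.9 and 12.0 in homozygotes, and wildtype mouse 39 held the lowest value. The log2 fold change of Bok was 0.40 in homozygous mice with a 95% interval from -0.45 to 1.24. Its value depended on which wildtype mouse was kept, since it was -0.13 without mouse 39 and 0.92 without mouse 41 (limma adjusted p = 0.174).

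**Figure D3:**
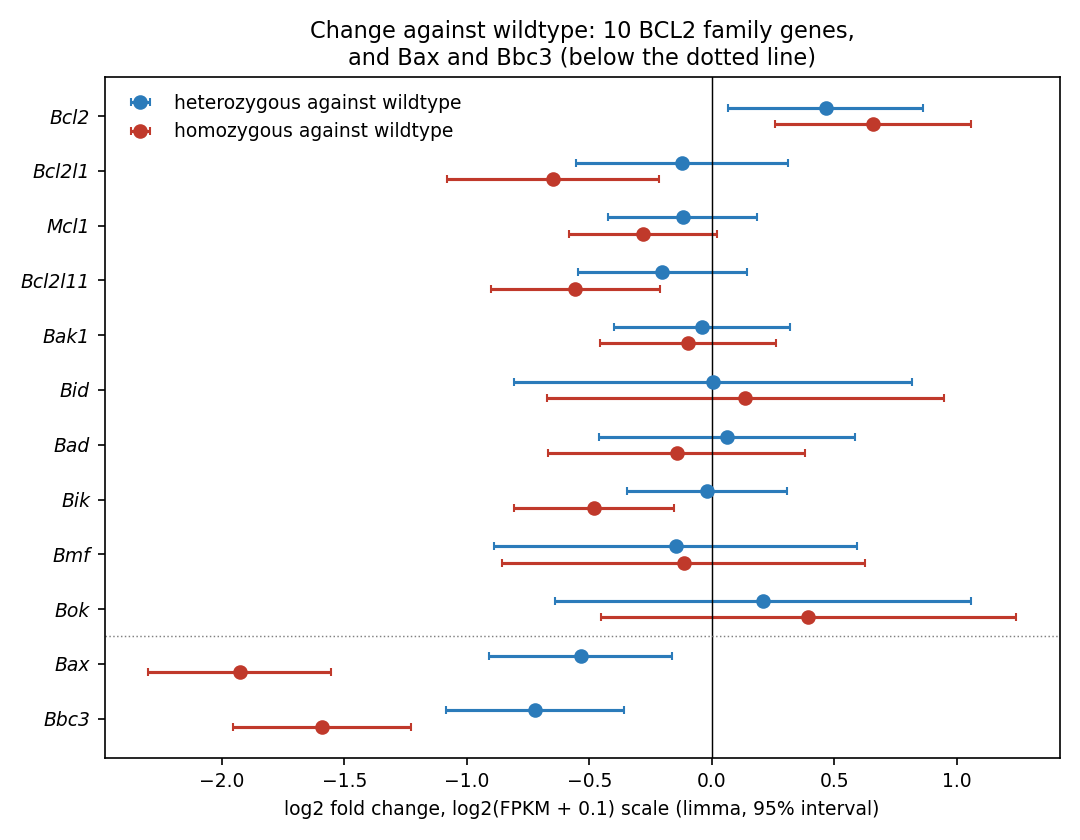
Log2 fold change against wildtype (x axis, on the log2(FPKM + 0.1) scale, with limma's 95% intervals, not adjusted for the number of genes) for the 10 members and, below the dotted line, Bax and Bbc3 (y axis). Intervals of homozygous mice exclude 0 for Bcl2, Bcl2l1, Bcl2l11 and Bik among the members, and the homozygous values of Bax and Bbc3 lie further left than any of them.

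Homozygous and heterozygous mice differed at an unadjusted p-value under 0.05 in 3 members, all lower in homozygous mice. Of all genes, 6.39% passed, 4.42% lower and 1.97% higher. At the adjusted threshold 0 members passed in limma (0.0145% of all genes). The linear model on each gene alone gave 2 members at the unadjusted threshold, against 785 of 13649 genes, and 0 at the adjusted one. The 3 members in limma were Bcl2l1 with a log2 difference of -0.53, Bik with -0.46 and Bcl2l11 with -0.36. With single mice left out these differences ran from -0.69 to -0.36, from -0.53 to -0.40 and from -0.48 to -0.23 in the same order. For Bcl2 the step from 1 to 2 mutant alleles was 0.19, with a 95% interval from -0.21 to 0.59.

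The study asked about gene dosage, and 3 of the 10 members had values that followed the number of R270H alleles in all 6 mice, against 8.83% of all tested genes. Bcl2 was ordered upwards, where 3.85% of all tested genes were, and Bcl2l11 and Mcl1 were ordered downwards, where 4.98% were. When mouse 41 was left out, 5 members were ordered. With a single wildtype mouse such order is easier to reach, and no share of all genes is given for that count. In a fit of the allele number as a single slope, 5 members had an unadjusted p-value under 0.05, against 19.6% of all genes (1 upwards against 9.15%, 4 downwards against 10.5%), and 0 an adjusted one, where 0.355% of all genes did. The log2 slope per mutant allele was 0.33 for Bcl2 (SE 0.08), -0.32 for Bcl2l1 (SE 0.09), -0.28 for Bcl2l11 (SE 0.07), -0.24 for Bik (SE 0.08) and -0.14 for Mcl1 (SE 0.06). The adjusted p-values from limma for these 5 slopes ran from 0.131 to 0.241. Leaving out a single mouse never raised that number of members, and such fits have less precision.

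The p53 targets Bax and Bbc3 had larger log2 differences between homozygous and wildtype mice than any of the 10 members, with -1.93 and -1.59. Bax had an FPKM of 92.5 and 90.4 in wildtype mice, 67.6 and 58.9 in heterozygotes and 26.8 and 21.4 in homozygotes, and Bbc3 had 22.8 and 18.6, 13.3 and 11.6, and 6.87 and 6.66. Pmaip1 was too low for the filter, with 1.10 and 1.55, 0.663 and 0.783, and 0.790 and 0.810. The ratio of Bax to Bak1 compares the 2 main pore-forming genes within each mouse, and it was 9.44 and 8.06 in wildtype mice, 6.03 and 6.35 in heterozygotes and 2.71 and 2.21 in homozygotes. On the log2 scale the ratio had a slope of -0.92 per mutant allele (exact permutation test over 90 arrangements of the 6 mice, two-sided p = 0.0222, the smallest value the design allows). The ratio of Bbc3 to Bcl2l11, both genes of broad BH3-only activators, was 2.81 and 2.22, 1.84 and 1.65, and 1.35 and 1.09, with a slope of -0.52 (exact permutation test, two-sided p = 0.0222). Adjusted over these 2 ratios, both p-values stayed at 0.0222. Bax and Bbc3 were picked with their decline in these mice known, so the 2 tests are not independent evidence of the contrast. Its size is given by the slopes alone, since both p-values are at the limit of the design.

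**Figure D4:**
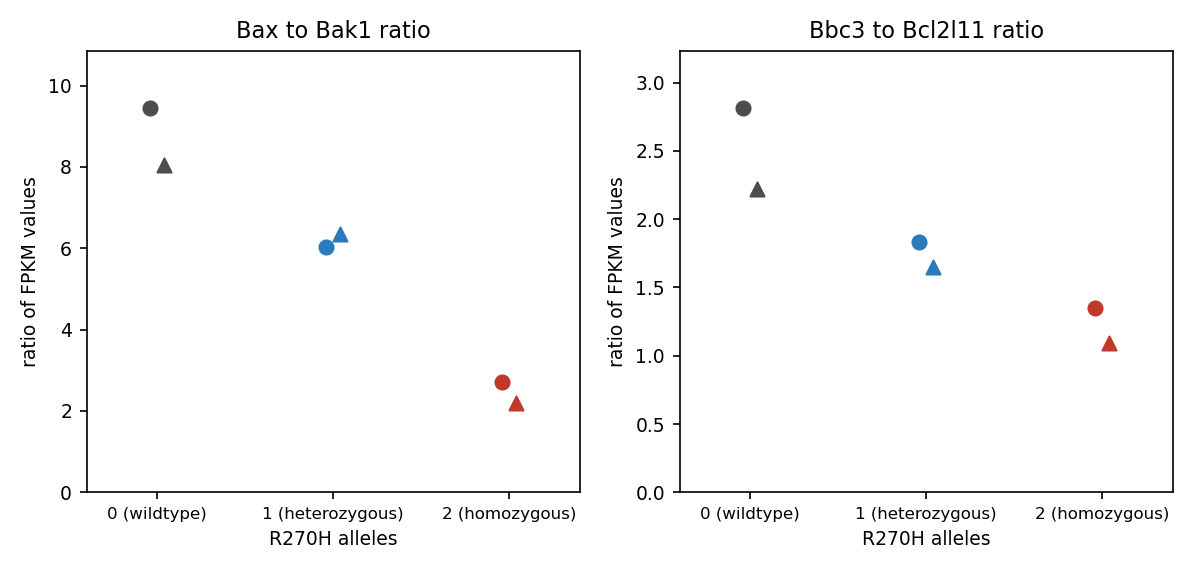
Ratio of FPKM values within each mouse (y axis, linear from 0) against the number of R270H alleles (x axis), for Bax to Bak1 and Bbc3 to Bcl2l11, with 1 point per mouse. The Bax to Bak1 ratio runs from 9.44 to 2.21 and the Bbc3 to Bcl2l11 ratio from 2.81 to 1.09, with no overlap between genotypes in either panel.

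Promoter windows of RefSeq (GRCm38.p6), which reach from 250 bases before to 50 bases after each annotated start, were searched for the p53 half-site, the 10-letter element of which p53 tetramers bind a pair. The element reads the same on both strands in its degenerate form, so a single pass covers both. Of 32851 mouse windows, 8.36% held a match. The table held 15 windows for 9 of the 10 members, all but Bik, and 1 of the 15 held a match, in a window of Bmf. That window, chr2:118544538-118544837, belongs to an annotated start inside the gene. The Bmf window at the 5′ end of the gene, chr2:118549637-118549936, held none. One window of Bax, shown for comparison, held a match as well, and the 3 windows of Bbc3 held none. Each line gives 30 bases, 5′ to 3′ on the gene's strand, with the half-site in capitals.
Bmf: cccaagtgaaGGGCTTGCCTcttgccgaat
Bax: agcatatcccAGGCAAGCTTtgaacttgcg
The stretch of Bmf is chr2:118544781-118544810 and that of Bax chr7:45467080-45467109, both on the minus strand, and 203 and 191 bases lie between the half-site and the respective start.

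The remaining family was read from a list of 14 genes, of which 8 passed the filter, and 0 of these 8 passed the adjusted threshold in any comparison. At an unadjusted p-value under 0.05, 2 of the 8 were lower in homozygous mice, namely Bcl2l14 and Bcl2l2, and 0 were higher, beside the same 9.32% and 8.65% of all genes. Bcl2l14, which encodes BCL-G, had an FPKM of 28.4 and 33.5 in wildtype mice, 27.04 and 22.5 in heterozygotes and 13.0 and 19.0 in homozygotes (log2 fold change -0.97 in homozygous mice, SE 0.22, limma adjusted p = 0.149). Bcl2l2, the gene of the pro-survival protein BCL-W, had 42.1 and 41.5, 35.3 and 34.0045, and 31.2 and 32.2 (log2 fold change -0.40, SE 0.10, limma adjusted p = 0.176). Both were ordered by allele number without overlap. Hrk, Bcl2l10, Bcl2l15 and the Bcl2a1 genes other than Bcl2a1b were below the filter, and the near-identical Bcl2a1 copies can share reads, so their values are uncertain.

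Downstream of the mitochondrion, 13 genes of cytochrome c release and the apoptosome were tested, and 0 passed the adjusted threshold. At an unadjusted p-value under 0.05 in homozygous mice, 2 were lower and 2 were higher, where 9.32% of all genes were lower and 8.65% higher. Apaf1, the scaffold of the apoptosome, had an FPKM of 6.32 and 7.03 in wildtype mice, 7.85 and 4.21 in heterozygotes and 2.58 and 3.73 in homozygotes (log2 fold change -1.08 in homozygous mice, SE 0.33, limma adjusted p = 0.208). Mouse 47 held the lowest value of Apaf1. Among 16 genes whose proteins regulate BCL2 family proteins, 0 had an unadjusted p-value under 0.05 in any comparison. Those with the smallest F-test p-values were Ywhaz, a 14-3-3 protein that binds BAD, with a log2 fold change of -0.21 in homozygous mice, and Usp9x, a deubiquitinase of MCL1, with 0.05.

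For the 3 pro-survival members, the tested genes with the most similar profile over the 6 mice were found by the root mean square difference of log2 values, each centred on its own mean. For Bcl2 these were Naaa (0.049), St3gal5 (0.053) and Sgcb (0.063), where Bcl2 itself varied by 0.29 around its mean. For Bcl2l1 they were Hspa8 (0.052), Bahcc1 (0.052) and Pcdh1 (0.062), where Bcl2l1 varied by 0.31. For Mcl1, which varied by 0.13, they were Plagl2 (0.029), Fbxo33 (0.031) and Prmt10 (0.035). With 6 mice and 13818 genes, profiles this close are a description of these mice only.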

How the data were processed

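Total RNA of snap-frozen prostates was sequenced as stranded mRNA libraries. The authors aligned reads to GRCm38 (mm10) with HISAT and deposited gene-level FPKM values from Cufflinks, 1 file per mouse; the submitters' processing notes also name bcl2fastq and Cuffnorm. Versions and annotation are not given in the sources used here. FPKM are not counts, so the sampling error of a value is unknown. Samples were grouped by their titles.

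Values were taken as log2(FPKM + 0.1) in the 13818 genes whose FPKM averaged 1 or more over the 6 mice, and fitted with limma 3.58.1 in R 4.3.3 (eBayes with intensity trend, 3 genotypes, 95% intervals from the moderated fit). The study selected genes by an ANOVA with a 1.5-fold criterion, and a count by p-value and that fold is given as well. On simulated data for homozygous against wildtype mice, with 200 of 13818 genes changed, 74% of changes of size 2 and 28% of changes of size 1 on the log2 scale were recovered. Ratios were tested by exact permutation. Python 3.11.15, numpy 2.4.6, pandas 2.3.3, matplotlib 3.10.9 and biopython 1.88 were used. Positions are from GENCODE M21.

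Members, lists and tests were chosen with earlier results of these data known. Named genes are the 10 members, Bax, Bbc3 and Pmaip1, the 2 genes with the smallest F-test p-value in each of 3 lists (and any passing the adjusted threshold), and the 3 closest profiles of Bcl2, Bcl2l1 and Mcl1. One gene that this rule names is not reported here. Pbsn, Svs2, Krt8, Krt18 and Ighm were named from the marker lists after their values were seen. Alternatives were pseudocounts of 1 and 0.01, no filter, a minimum average FPKM of 5, quantile normalization or scaling to the median, no intensity trend, a linear model on each gene alone, and leaving out each mouse. Each animal is a separate mouse, and no litter or batch is named in the labels.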

Additional observations from a re-analysis of the deposited data

How the results depend on the processing

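The absence of members at an adjusted p-value under 0.05 held in the 5 comparisons under all 14 alternatives, of which 6 leave out a mouse and leave 1 arm with a single mouse that is assumed to vary like the others. With 2 mice per genotype and no fragment counts, the spread between mice limits the precision. No paired analysis was possible because the labels give each mouse its own animal number and the genotypes share none.

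Fits with a mouse left out have less precision, so their counts can fall without a change in the estimates. The number of members at an unadjusted p-value under 0.05 moved more. Leaving out single mice changed it in every comparison, and changed the number over all tested genes as well. These shifts are therefore not particular to the members. For heterozygous against wildtype mice the number of members was 0 with quantile normalization, against 923 of 13818 genes. It was also 0 with a mean FPKM of at least 5, against 630 of 9320 genes, a filter that removes Bcl2 itself. The number ordered by allele number lay between 3 and 5 with single mice left out and was 2 with quantile normalization (3 as deposited). Order is easier to reach with a single mouse in a genotype. Over all tested genes, the number at an adjusted p-value under 0.05 in homozygous against wildtype mice was 53, but 4 without the filter, 23 without the intensity trend, 0 with the linear model on each gene alone and between 4 and 96 with single mice left out. For the slope it was 49, but 10, 32 and 0 in the same order, 27 with quantile normalization and between 0 and 19 with single mice left out. For the 3 genotypes it was 14, but 3, 9 and 0, 4 with quantile normalization and between 0 and 9 with single mice left out, and for homozygous against heterozygous mice it was 2, with 0 to 40 when single mice were left out. With pseudocounts of 1 and 0.01 the slopes were -0.90 and -0.92 for the ratio of Bax to Bak1 and -0.49 and -0.52 for that of Bbc3 to Bcl2l11. Their p-value is the smallest the design allows and says nothing about stability.

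Among single members, the log2 differences that changed sign had adjusted p-values above 0.05 with all mice. The widest swing was that of Bok, which without mouse 41 had an unadjusted p-value of 0.00706 in homozygous and 0.0167 in heterozygous mice (limma). Bid in heterozygous against wildtype mice was -0.080 with quantile normalization. With single mice left out, heterozygous against wildtype values ran from -0.29 to 0.049 for Bcl2l1, -0.17 to 0.10 for Bak1, -0.27 to 0.28 for Bid, -0.16 to 0.29 for Bad, -0.13 to 0.10 for Bik, -0.57 to 0.28 for Bmf and -0.32 to 0.74 for Bok. Homozygous against wildtype values ran from -0.19 to 0.0013 for Bak1, -0.18 to 0.46 for Bid, -0.33 to 0.045 for Bad, -0.54 to 0.31 for Bmf and -0.13 to 0.92 for Bok. Homozygous against heterozygous values ran from -0.19 to 0.079 for Bak1, -0.19 to 0.45 for Bid, -0.43 to 0.021 for Bad and -0.18 to 0.25 for Bmf. The cause was not tested.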
